A study of Mus musculus with 18 samples.

Results

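Whole mouse testis at postnatal day 7 was compared with whole testis at embryonic day 12.5 across all 37820 probes of an lncRNA and mRNA array. The 6 arrays of the comparison, 3 titled P7 and 3 titled E12.5, were chosen by their titles from 18 arrays at 6 stages, and 3 arrays at embryonic day 15.5 served as the point in between. Values are log2 signals as deposited, and a change is the difference of 2 stage means on that scale, so that a change of 1 is 2-fold. The labels name no strain, genotype, treatment or number of animals for any group. Nothing says that the 3 arrays of a stage came from separate animals or litters. The p-values therefore speak to the spread among the arrays alone, and that spread may be technical. In the main fit the spread of a probe was estimated from all 18 arrays. An SE, interval or p-value can thus reflect scatter at stages outside the comparison.

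As background, germ cells of the fetal mouse testis still divide at about E12.5, stop dividing at about E15.5 as they enter mitotic arrest, and resume division after birth, so that spermatogonia are dividing at P7. The somatic compartment changes over the same time: Sertoli cells enclose the germ cells in cords and multiply until after birth, and fetal Leydig cells are later replaced by an adult population. A transcript of whole testis that differs between P7 and E12.5 may therefore come from any of these cells. In whole tissue, fewer cells of a type and less RNA per cell cannot be told apart.

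Matching the identifiers to RefSeq and symbol tables gave 0 matches, so probes are called by their identifiers and no role is given to them. Marker genes of germ cells, Sertoli cells or Leydig cells were not analysed here for the same reason, and neither the labelled tissue nor the division of germ cells at the 2 ages was checked against the data. The 18 array medians lay between 7.79 and 8.0. The number of arrays limits the precision.

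E12.5 replicate 2 stood apart from the other E12.5 arrays, so each main count is given with it and without it. Replicates 1 and 3 differed by at least 2-fold at 0.579% of probes, and each differed from replicate 2 at 25.9% to 26.6%. Pairs of P7 arrays differed at 5.0% to 8.57% of probes. P7 arrays differed from E12.5 replicate 2 at 18.9% to 22% of probes, and from replicates 1 and 3 at 25.6% to 36.3%. Replicate 2 was thus nearer to P7 than the other E12.5 arrays were, and it was nearest of all to the E15.5 arrays, from which it differed at 15.4% to 18.7% of probes (r from 0.948 to 0.956). Correlation across probes gave the same order, with r from 0.942 to 0.948 between P7 and replicate 2 and from 0.899 to 0.932 between P7 and replicates 1 and 3. Probes are not independent replicates in these values.

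Replicate 2 lay on the P7 side of the other E12.5 arrays for most probes that differed. These probes were called by the difference of P7 from replicates 1 and 3. Places beyond the P7 mean were not counted apart. Among 5171 probes called higher at P7 without replicate 2, it lay on the P7 side of the mean of replicates 1 and 3 for 91.9%, and among 4353 called lower for 86.8%. Its median position was 0.512 of the way to the P7 mean for the first set and 0.844 for the second. Among probes called between E15.5 and the other E12.5 arrays it was 0.563 for 5770 higher at E15.5 and 0.750 for 5010 lower. Falls are therefore the changes most affected by this array. It was used under its label, E12.5. What sets it apart, a mix-up of samples or labels included, was not tested.

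P7 and E12.5 testis differed by at least 2-fold at 6046 probes, 16.0% of all probes (limma, Benjamini-Hochberg adjusted p below 0.05). Signal was higher at P7 for 3624 probes (9.58%) and lower for 2422 (6.40%). Rises had a median of 1.54 and falls of -1.59. An 8-fold change or more was measured for 367 rises and 173 falls, and 32-fold or more for 42 rises and 15 falls. The values of the 3 P7 and 3 E12.5 arrays did not overlap for 5485 of the called probes (90.7%), against 36.6% of all probes.

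When E12.5 replicate 2 was left out, 9524 probes differed (25.2%), of which 5171 were higher at P7 (13.7%) and 4353 lower (11.5%). The fit then rests on E12.5 replicates 1 and 3, whose small difference may understate the spread of the stage. Probes called in both fits, always in the same direction, numbered 5669, which is 93.8% of the probes called with all arrays and 59.5% of those called without replicate 2. Probes called only without it numbered 1660 rises and 2195 falls. Steep falls depended most on this array, with 527 of at least 8-fold and 56 of at least 32-fold without it, when rises of these sizes numbered 498 and 69. Rises outnumbered falls in both fits, but among changes of at least 8-fold falls were in the majority without replicate 2. Falls numbered 1596 when E12.5 replicate 1 was left out and 1595 when replicate 3 was.

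**Figure D1:**
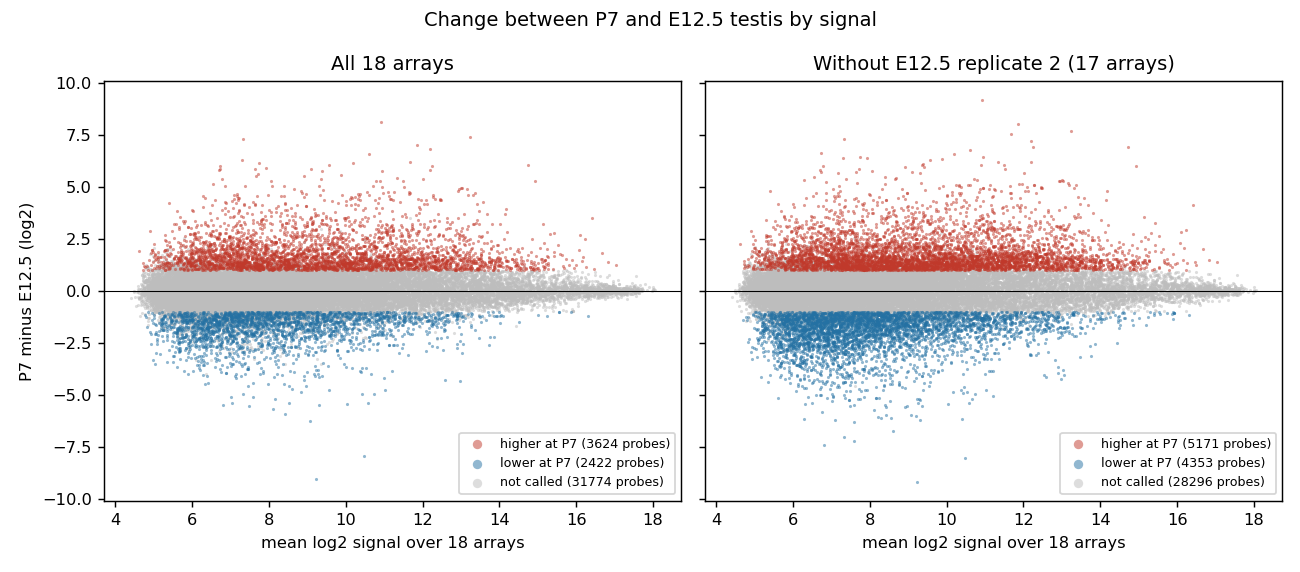
Change between P7 and E12.5 (log2, vertical axis) against mean log2 signal over 18 arrays (horizontal axis) for 37820 probes, with all 18 arrays on the left and without E12.5 replicate 2 on the right. Each point is a probe, in red where it was called higher at P7, in blue where lower and in grey where not called. The left panel holds 3624 red and 2422 blue points and the right panel 5171 and 4353, and the gain is larger among falls.

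Of all rises, 31.1% began at an E12.5 mean of 6.53 or less, the range of the dimmest 25% of probes, and 31.9% of falls ended there at P7. How far this range lies above background was not measured.

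The 6 largest rises had P7 means from 11.53 to 16.20 and E12.5 means from 4.25 to 9.21. ASMM9PARTA029249 read 13.17, 13.33 and 13.31 in the P7 arrays, against 4.24, 7.32 and 3.98 in the E12.5 arrays. These rises were chosen among probes whose P7 and E12.5 arrays did not overlap. In ASMM9PARTA029249 E12.5 replicate 2 was the highest of its stage. The change was 8.09 (SE 0.63, adjusted p = 2.30e-07, limma), and 9.16 without replicate 2. ASMM9PARTA027603 was among the brightest probes at P7, with 16.23, 16.21 and 16.17, against 8.23, 11.25 and 8.15 at E12.5. Replicate 2 was again well above the other E12.5 arrays, and the rise was 6.99 with it and 8.01 without it (adjusted p = 2.93e-07 and 7.65e-12, limma). Both probes were lower in the adult than at P7, with adult means of 9.22 and 7.20.

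The other rises of this size were less affected by replicate 2. ASMM9PARTA019685 read 11.34, 11.71 and 11.54 at P7, against 4.22, 4.26 and 4.27 at E12.5, a rise of 7.28 (SE 0.80, adjusted p = 1.00e-05, limma). All E12.5 arrays were in the dim range. The high level was not found later, and the means were 7.72 for P14, 5.69 for P21 and 7.01 for the adult. The SD was 0.02 at E12.5 and 0.18 at P7, but 1.98 at P21 and 1.74 in the adult (n = 3 each). The spread at these later stages enters the SE. ASMM9PARTA035862 read 15.56, 15.33 and 15.46 at P7, against 7.71, 8.57 and 7.85 at E12.5, a rise of 7.41 (SE 0.29). Its P14 mean was 16.21. ASMM9PARTA015682 rose by 6.57 (SE 0.25) and ASMM9PARTA019791 by 6.83 (SE 0.25), with adjusted p of 1.47e-10 and 1.18e-10 (limma).

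The rises differed in when the signal appeared. ASMM9PARTA019791 was at 14.18, 13.87 and 14.20 at E15.5, close to its P7 level (difference of P7 from E15.5 0.62, SE 0.25, adjusted p = 0.0985, limma). ASMM9PARTA015682 was at 9.04, 8.68 and 8.95 at E15.5, so that the larger step came after that stage (4.17, adjusted p = 4.53e-08). ASMM9PARTA035862 made steps of nearly equal size, 3.71 up to E15.5 and 3.69 after it.

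**Figure D2:**
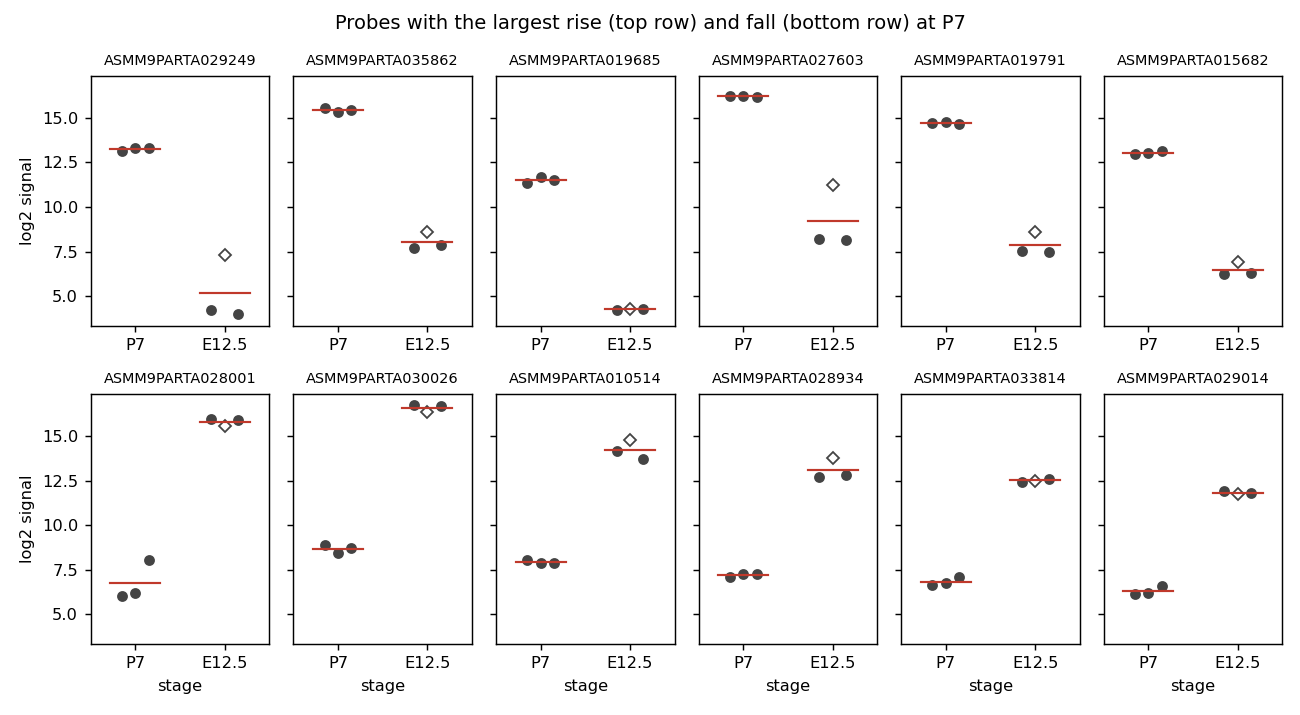
Log2 signal of each array (vertical axis) at P7 and E12.5 for the 6 probes with the largest rise (top row) and the 6 with the largest fall (bottom row) among probes called with and without E12.5 replicate 2. Points are arrays, the open diamond is E12.5 replicate 2 and the red line is the stage mean of 3 arrays. Only probes without overlap between the stages were chosen. Replicate 2 lies toward P7 most clearly in ASMM9PARTA029249 (7.32) and ASMM9PARTA027603 (11.25).

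The 6 largest falls had P7 means from 6.32 to 8.68 and E12.5 means from 11.83 to 16.59, and leaving out replicate 2 moved them little. ASMM9PARTA028001 read 6.04, 6.18 and 8.02 at P7, against 15.95, 15.53 and 15.88 at E12.5. P7 replicate 3 was higher than the other P7 arrays but far below E12.5, and the change was -9.04 (SE 0.41, adjusted p = 9.30e-10, limma). ASMM9PARTA030026 read 8.88, 8.44 and 8.71 at P7, against 16.72, 16.37 and 16.68 at E12.5, and fell by 7.91 (SE 0.27, adjusted p = 5.49e-11, limma). Without replicate 2 these changes were -9.17 and -8.03. Both were already lower at E15.5, with means of 10.40 and 13.81.

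Among the other 4 falls, ASMM9PARTA010514 and ASMM9PARTA028934 were not called between E15.5 and E12.5. ASMM9PARTA028934 read 7.08, 7.23 and 7.27 at P7, against 12.72, 13.75 and 12.83 at E12.5, and 12.77, 12.58 and 12.56 at E15.5. It fell by 5.91 (SE 0.40, adjusted p = 6.31e-08, limma), and its difference of E15.5 from E12.5 was -0.46 (adjusted p = 0.472). ASMM9PARTA010514 fell by 6.27 (SE 0.26), and E15.5 minus E12.5 was 0.12 (adjusted p = 0.807). ASMM9PARTA033814 and ASMM9PARTA029014 fell by 5.70 (SE 0.51) and fell by 5.51 (SE 0.44) in that order, with E15.5 means of 10.55 and 10.19. All 6 probes stayed low after P7, with means at P14 from 5.93 to 8.13.

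Probes could also be shown to be alike at both ages. For 14204 probes (37.6%) the 95% interval of the difference between P7 and E12.5 lay within 2-fold in either direction, and for 2637 it lay within 1.5-fold. The first count was 10956 (29.0%) with E12.5 replicate 2 left out. A further 17570 probes (46.5%) were neither called nor bounded in this way, so these arrays leave their difference unsettled. The 2 brightest bounded probes were ASMM9PARTA051694 and ASMM9PARTA046330. ASMM9PARTA046330 read 18.11, 18.06 and 18.06 at P7 and 18.06, 17.86 and 18.08 at E12.5, with a difference of 0.07 (95% interval -0.24 to 0.38). For ASMM9PARTA051694 the difference was 0.05 (95% interval -0.29 to 0.39). At signals of about 18 both were near the top of the range measured. Saturation was not tested.

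Some changes were hidden by E12.5 replicate 2. ASMM9PARTA032695 read 7.38, 5.93 and 9.30 at P7, against 13.63, 4.65 and 13.67 at E12.5. Replicate 2 lay far below the other E12.5 arrays and near the E15.5 arrays, which read 4.45, 4.36 and 4.41. The fall was -3.11 with all arrays (adjusted p = 0.204, limma) and -6.11 without replicate 2 (adjusted p = 4.62e-06). ASMM9PARTA004256 showed the same order, with 7.07, 4.42 and 7.17 at P7, against 12.24, 4.86 and 12.17 at E12.5. It gave -3.54 with all arrays (adjusted p = 0.0844) and -5.98 without replicate 2 (adjusted p = 1.03e-05).

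Rises were also called only without replicate 2. CUST_196_PI426409190 read 11.52, 11.64 and 11.79 at P7, against 7.53, 10.96 and 7.53 at E12.5, where replicate 2 was at the level of the E15.5 arrays (10.95, 10.95 and 11.05). The rise was 2.97 with all arrays (adjusted p = 0.0567, limma) and 4.12 without replicate 2 (adjusted p = 0.00606). Unlike for the 2 falls above, the SE hardly changed, at 1.05 with replicate 2 and 1.01 without it. The P21 arrays of this probe were spread, at 6.49, 11.25 and 11.09, and they enter the SE. ASMM9PARTA002047 read 13.12, 13.46 and 14.17 at P7, against 9.17, 11.94 and 9.10 at E12.5. It rose by 4.45 without replicate 2 (adjusted p = 0.0156, limma) and gave 3.51 with it (adjusted p = 0.0504). Its arrays were also spread at other stages, with 10.57, 13.54 and 11.96 at E15.5 and 10.90, 13.98 and 10.97 at P14. Its SE did not fall without replicate 2, at 1.29, so that array was not the only source of its spread. These 4 probes were the 2 largest rises and 2 largest falls called only without replicate 2, so they show that pattern by choice.

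The changes made between E12.5 and E15.5, as germ cells enter arrest, were then followed to P7. With all 18 arrays, 7602 probes changed over this interval (20.1% of all probes), 4025 upward (10.6%) and 3577 downward (9.46%). A change was counted as undone where the probe moved back at least 2-fold from E15.5 to P7 by the test and P7 was not called against E12.5. It was counted as kept where P7 was called against E12.5 in the direction of E15.5, and as exceeded where P7 was called in the opposite direction. The 3 comparisons share arrays, so these counts carry no test of their own.

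Of the 7602 changes, 2284 (30.0%) were undone by P7, 2828 (37.2%) were kept, 114 (1.5%) were exceeded and 2376 (31.3%) fell in none of these classes. Undone changes comprised 1261 rises (31.3% of rises) and 1023 falls (28.6% of falls). Kept changes comprised 1726 rises (42.9%) and 1102 falls (30.8%). The median share of the E15.5 change that had returned at P7 was 93.0% for undone changes, 4.09% for kept ones, 50% for unclassed ones and 49.3% over all 7602. The classes were sorted by these same differences, so a high share for undone and a low share for kept changes follow from the sorting. As background, 15.7% of all probes were called between P7 and E15.5, 7.50% higher and 8.23% lower at P7, and 16.0% between P7 and E12.5. The arrays of E15.5 and E12.5 did not overlap for 38.4% of all probes, and those of P7 and E15.5 for 49.4%.

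With E12.5 replicate 2 left out, 10780 probes changed between E12.5 and E15.5 (28.5% of all probes, 15.3% upward and 13.2% downward), of which 2432 (22.6%) were undone, 5855 (54.3%) kept, 110 (1.02%) exceeded and 2383 (22.1%) unclassed. In that fit 17.7% of all probes were called between P7 and E15.5, 9.06% higher and 8.66% lower at P7. The number undone was close to that with all arrays (2432 against 2284), while the number kept was far larger (5855 against 2828). The shift was largest among falls, of which 60.7% were kept and 19.1% undone, against 48.7% and 25.6% of rises. In both fits 1822 probes were undone, which is 79.8% of those undone with all arrays and 74.9% of those undone without replicate 2. Of the probes undone with all arrays, 419 were kept without replicate 2. The median share returned over all changes was 37.1% without it.

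The number undone lay between 1734 and 2432 when any single array of the 3 stages was left out. The undone falls depended most on P7 replicate 1, without which they numbered 657. Leaving out E12.5 replicate 1 gave 1741 kept changes, and leaving out replicate 3 gave 1745. Kept falls numbered 538 and 536 without these arrays, 676 without P7 replicate 2 and 687 without P7 replicate 3. Undone falls then outnumbered kept falls, at 904, 895, 926 and 1000, so which of the outcomes was more common among falls depended on single arrays. Kept rises outnumbered undone rises with any single array of these stages left out.

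**Figure D3:**
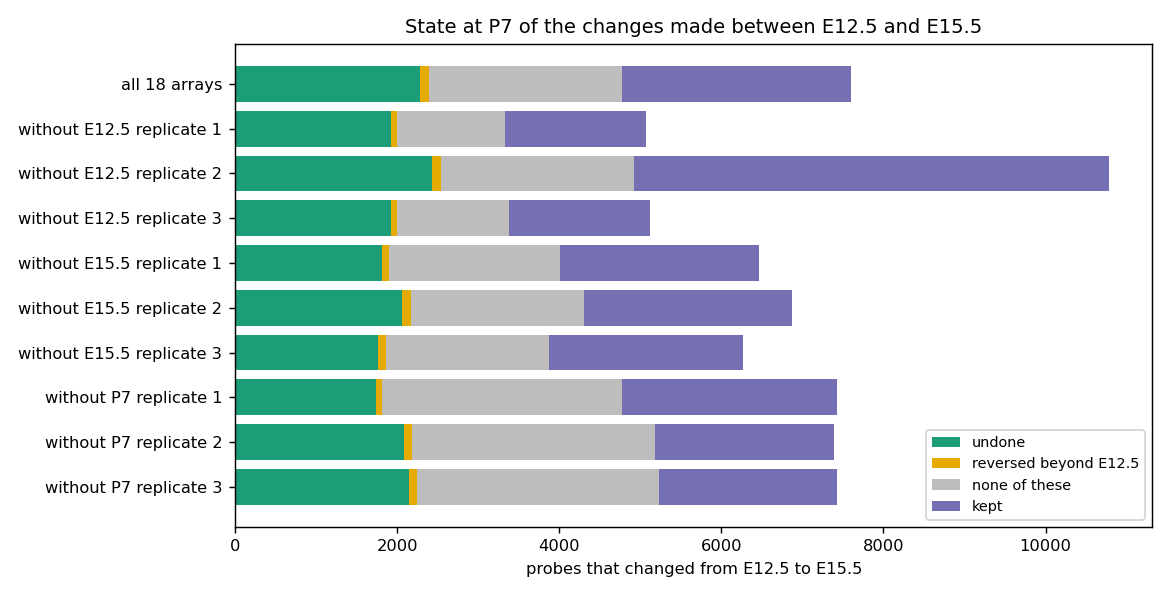
Number of probes that changed between E12.5 and E15.5 (horizontal axis), divided by their state at P7, with all 18 arrays and without each array of the 3 stages in turn (rows). Green is undone, yellow reversed beyond E12.5, grey none of these and purple kept. The green bars end between 1734 and 2432 in all rows, while the purple bars run from 1741 to 5855, the longest without E12.5 replicate 2.

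Large changes were the ones whose outcome hung most on replicate 2. Of 1068 changes of at least 8-fold between E12.5 and E15.5, 35.5% were undone and 47.8% kept with all arrays, whereas 16.9% of 1885 were undone and 81.9% kept without replicate 2. For changes from 2-fold up to 4-fold, 26.6% of 4738 were undone with all arrays and 21.7% of 6362 without replicate 2. Kept did not mean unaltered: 338 kept probes with all arrays and 1148 without replicate 2 had moved back from E15.5 by the test without reaching E12.5. Nor did undone mean equal, since the 95% interval of the difference between P7 and E12.5 lay within 2-fold for 809 of 2284 undone probes (35.4%) and for 907 of 2432 without replicate 2 (37.3%).

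The undone rises of largest size were dim at E12.5, bright at E15.5 and dim at P7. ASMM9PARTA017338 read 4.62, 6.30 and 4.58 in the E12.5 arrays, 12.41, 12.48 and 12.54 in the E15.5 arrays, and 4.01, 3.71 and 4.62 in the P7 arrays. The E15.5 arrays stood far above both other stages. The rise to E15.5 was 7.31 and the fall after it -8.36 (SE 0.94 each, adjusted p = 4.26e-05 and 1.56e-05, limma), and P7 minus E12.5 was -1.05 (95% interval -3.05 to 0.94). Signal returned later, with a mean of 8.75 in the adult. The P21 arrays of this probe read 9.62, 4.62 and 4.50, and their spread enters the SE and the interval.

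The next undone rises were low in the adult. ASMM9PARTA013872 averaged 4.42 ± 0.28 in the E12.5 arrays, 10.07 ± 0.42 in the E15.5 arrays and 4.87 ± 0.15 in the P7 arrays (SD, n = 3 each), and P7 minus E12.5 was 0.45 (95% interval -0.22 to 1.12). Its mean in the adult was 4.4. ASMM9PARTA017613 reached 10.79 ± 0.09 at E15.5 (SD, n = 3) and was at 5.38 ± 0.15 at P7, above E12.5 by 0.65 (95% interval -0.10 to 1.40). Without E12.5 replicate 2 that difference was 0.97 (95% interval 0.20 to 1.73, adjusted p = 0.0491, limma), just short of the 2-fold needed for a call. The mean of ASMM9PARTA017613 was higher at P14, at 7.28, and was 6.18 at P21 and 4.46 in the adult.

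The undone falls of largest size were low at E15.5 alone of the 3 stages. ASMM9PARTA034701 read 14.08, 12.72 and 14.09 in E12.5 arrays, 7.97, 7.52 and 7.68 in E15.5 arrays, and 14.13, 13.58 and 13.52 in P7 arrays. It fell by 5.91 to E15.5 (SE 0.36, adjusted p = 1.19e-08, limma), and P7 differed from E12.5 by 0.11 (95% interval -0.65 to 0.87), the closest return among the 6 named undone probes. ASMM9PARTA043968 averaged 11.23 ± 1.03 in E12.5 arrays, 5.06 ± 0.29 in E15.5 arrays and 11.01 ± 0.13 in P7 arrays (SD, n = 3 each). Its P7 minus E12.5 was -0.22 with all arrays and -0.81 without replicate 2. ASMM9PARTA028745 had means of 3.68 ± 0.92 at E15.5 and 10.55 ± 0.51 at P7 (SD, n = 3). Its E12.5 arrays read 11.88, 8.65 and 11.78, so that P7 minus E12.5 was -0.23 with all arrays and -1.28 without replicate 2 (adjusted p = 0.874 and 0.0991, limma).

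Kept changes were followed in the 3 largest rises and 3 largest falls between E12.5 and E15.5 that were kept with and without replicate 2. In 5 of these 6 probes P7 was called back toward E12.5, which over all kept changes held for 338 of 2828. ASMM9PARTA029136 lost the least of the 3 rises, with 4.29, 5.06 and 3.86 in E12.5 arrays, 11.28, 11.40 and 11.44 in E15.5 arrays, and 9.98, 10.24 and 10.27 in P7 arrays (P7 minus E12.5 5.76, SE 0.25, adjusted p = 6.94e-10, limma). ASMM9PARTA006316 rose by 6.98 to E15.5 and was 4.42 above E12.5 at P7. ASMM9PARTA030276 read 4.28, 4.69 and 3.95 in E12.5 arrays, 11.15, 11.02 and 11.26 in E15.5 arrays, and 6.16, 6.58 and 6.36 in P7 arrays. Most of its rise had gone, yet P7 was still 2.06 above E12.5 (SE 0.46, adjusted p = 0.00436, limma).

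Among kept falls, ASMM9PARTA037680 read 11.57, 9.65 and 11.61 in E12.5 arrays, 5.43, 5.43 and 5.34 in E15.5 arrays, and 7.15, 5.62 and 6.34 in P7 arrays, a difference of P7 from E12.5 of -4.58 (SE 0.46, adjusted p = 3.91e-06, limma). P7 minus E15.5 was 0.97 (adjusted p = 0.163). ASMM9PARTA031828 and ASMM9PARTA012443 had P7 means between those of the other stages, with P7 minus E12.5 at -2.87 and -3.83. The P7 arrays of ASMM9PARTA012443 were spread, at 11.44, 8.15 and 9.33, and its adjusted p was 0.00177 in the fit of 18 arrays and 0.0658 with only the P7 and E12.5 arrays fitted.

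**Figure D4:**
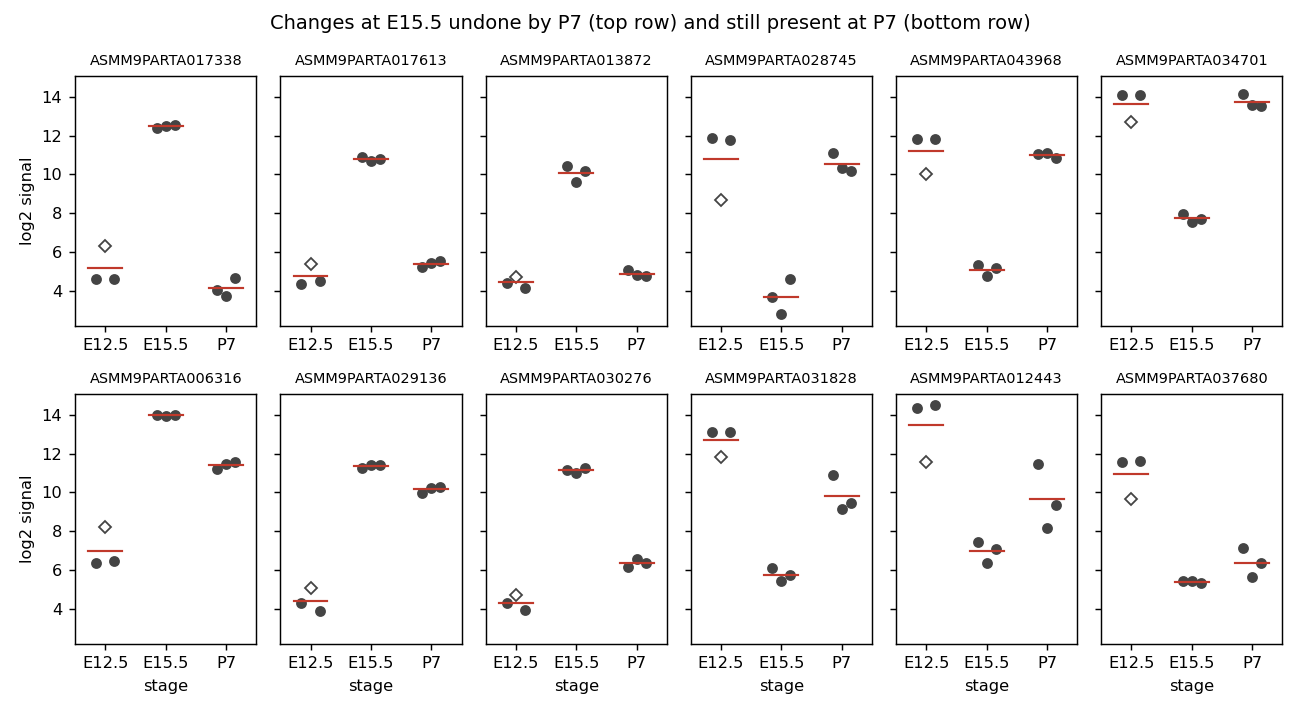
Log2 signal of each array (vertical axis) at E12.5, E15.5 and P7 for 6 probes whose change at E15.5 was undone by P7 (top row) and 6 whose change was still called at P7 (bottom row). Points are arrays, the open diamond is E12.5 replicate 2 and the red line is the stage mean of 3 arrays. ASMM9PARTA034701 averaged 7.72 at E15.5 and 13.74 at P7, and ASMM9PARTA030276, in the bottom row, averaged 11.14 at E15.5 and 6.37 at P7, still above E12.5.

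The P14 means also lay apart between the classes. They did not define the classes, but the P14 arrays entered the fit that called the probes. Nearness to E12.5 or E15.5 also uses the stage means that sorted the probes. The shares below are therefore descriptions and no independent check. Undone rises had a median level of 7.46 in E12.5, 9.33 in E15.5, 7.49 in P7 and 7.49 in P14 arrays, and that of undone falls was 9.89, 7.26, 9.53 and 10.10. Kept rises had medians of 7.35, 9.50, 9.47 and 9.13 at these stages, and kept falls 9.63, 7.25, 7.46 and 7.78. P14 was nearer to E12.5 than to E15.5 for 78.0% of undone rises and 94.2% of undone falls, against 28% of kept rises and 29.5% of kept falls. In the fit that left out E12.5 replicate 2 these shares were 80.5% and 90.9% for undone changes and 28% and 40.1% for kept ones. Later the undone falls declined, to a median of 8.87 at P21 and 8.14 in the adult.

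**Figure D5:**
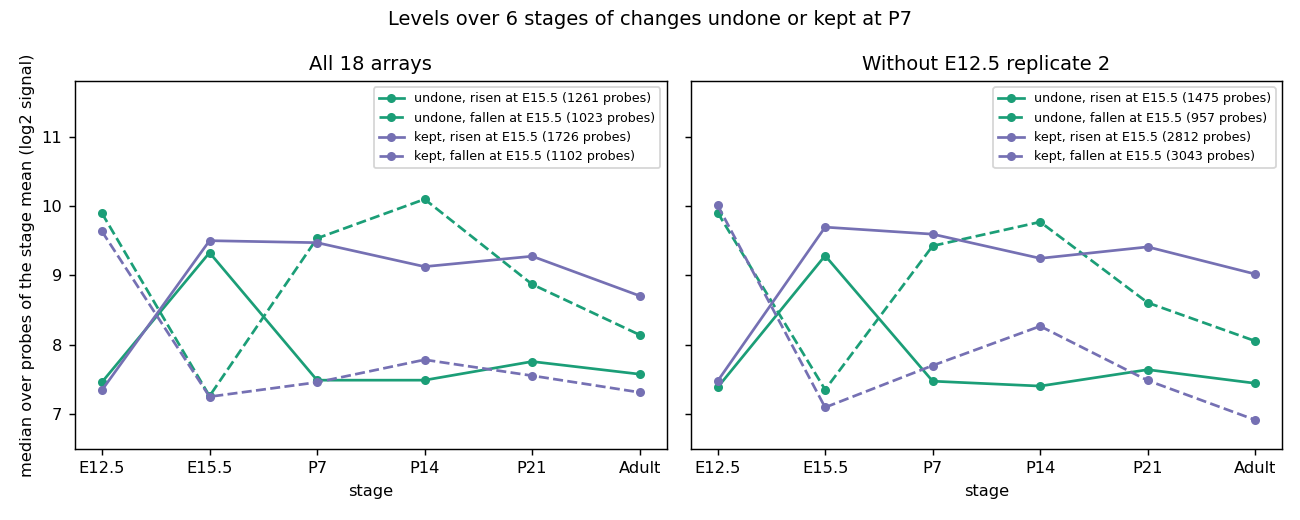
Median over probes of the stage mean (log2 signal, vertical axis) at 6 stages for changes between E12.5 and E15.5 that were undone (green) or kept (purple) at P7, with rises as solid and falls as dashed lines. The left panel uses all 18 arrays and the right panel leaves out E12.5 replicate 2. At P14 the undone falls were at 10.10 and the kept falls at 7.78 in the left panel.

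Probes called between P7 and E12.5 had in part reached their P7 level by E15.5. The 3624 probes higher at P7 had median levels of 7.93, 9.12 and 9.78 in E12.5, E15.5 and P7 arrays, and of 9.71, 9.74 and 9.36 in P14, P21 and adult arrays. The 2422 lower at P7 had medians of 9.37, 8.28, 7.45, 7.54, 7.36 and 7.07 at the 6 stages. Over all probes the medians lay between 7.75 and 7.98. The 4353 probes called lower with E12.5 replicate 2 left out had medians of 7.61 at E15.5 and 7.68 at P7, so that in this fit the median was as low at E15.5 as at P7.

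Probes for long intergenic noncoding RNAs, recognised by lincRNA in their identifiers, mostly rose where they changed, though in the fit of 18 arrays not among the dimmest. Of 2480 such probes 283 were called (11.4%, against 16.0% of all probes), 214 higher at P7 and 69 lower, so that 75.6% of called lincRNA probes were higher, against 59.9% of all called probes. The median change over all of them was 0.21, against 0.08 over all probes. After quantile normalization again there were 209 rises and 82 falls with a median of 0.12, and after median centring of the arrays 190 and 75 with a median of 0.15. There were 319 rises and 99 falls with E12.5 replicate 2 left out, and 184 called probes with either of the other E12.5 arrays left out. The called share varied with mean signal, and 39.6% of lincRNA probes were among the dimmest 25%. Of 203 among the 7564 brightest probes 30.5% were called (60 higher, 2 lower), against 18.6% of these 7564. Of 812 among the 7564 dimmest 3.45% were called (13 higher, 15 lower), against 9.24%. Without replicate 2 these 812 gave 30 rises and 23 falls. In the groups of 7564 between, from dim to bright, 9.55%, 10.5% and 23.8% were called, against 14.7%, 15.6% and 21.8%. Of the E15.5 changes of lincRNA probes, 54 of 214 (25.2%) were undone and 92 (43.0%) kept, against 30.0% and 37.2% of all probes. With E12.5 replicate 2 left out, 19.8% were undone and 54.5% kept, against 22.6% and 54.3% of all probes.

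Identifiers of the human and mouse lincRNA sets, 640 in all, were rarely called. The 34 called (5.31%, against 16.0% of all probes) were all higher at P7, and no probe of these sets was called lower in the fit of 18 arrays. They were dim, with more than 50% of each set among the dimmest 25% of probes (54.1% and 51.2%). The number higher was 17 when E12.5 replicate 1, E12.5 replicate 3 or P7 replicate 3 was left out, and up to 2 were lower with another array left out or after quantile normalization again. In the MM9LINCRNAEXON set, 180 of 1840 were higher and 69 lower (13.5% called). Of all probes 9.58% were higher and 6.40% lower. Of sequence accessions 13.3% were called and of CUST probes 15.2%, and 19.8% and 24.1% with E12.5 replicate 2 left out, when 25.2% of all probes were. Differences between these sets of identifiers were not tested.

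Of the named lincRNA probes MM9LINCRNAEXON11355-_P1 had the highest signal at P7. It read 16.09, 16.20 and 16.13 at P7, against 9.29, 11.99 and 9.21 at E12.5. E12.5 replicate 2 was near the E15.5 level of 12.42, and the rise was 5.98 with it and 6.89 without it (adjusted p = 8.01e-07 and 1.44e-10, limma). The signal was 8.29 in the adult. MM9LINCRNAEXON11015-_P1 rose by 5.04 (SE 0.37) and MM9LINCRNAEXON10415-_P1 by 3.38 (SE 0.34). The level of MM9LINCRNAEXON10415-_P1 lay between 12.60 and 13.23 at all 5 stages from E15.5 on.

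Among lincRNA falls, MM9LINCRNAEXON10112+_P1 read 5.24, 5.35 and 5.88 at P7, against 9.40, 11.08 and 9.49 at E12.5. It fell by 4.50 (SE 0.36, adjusted p = 2.93e-07, limma), and its E15.5 mean of 10.09 was close to the E12.5 mean of 9.99. Without replicate 2, the highest of its stage, P7 minus E12.5 was -3.95 and E15.5 minus E12.5 was 0.64. The adult mean of 12.03 was the highest of the 6 stages. MM9LINCRNAEXON10667-_P1 fell by 3.74 (SE 0.42). MM9LINCRNAEXON12113-_P1 read 5.05, 3.98 and 4.42 at P7, against 8.83, 5.94 and 8.91 at E12.5, and fell by 3.41 with replicate 2 (SE 0.63, adjusted p = 0.00120, limma), where the difference without it was -4.39.

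For 625 lincRNA numbers the table held a probe for each strand. In 118 of these pairs 1 strand was called between P7 and E12.5, in 5 both strands rose, in 2 the strands moved in opposite directions and in 500 neither was called. With E12.5 replicate 2 left out, 1 strand was called in 183 pairs, both in the same direction in 14, both in opposite directions in 2 and neither in 426. As background, 11.4% of single lincRNA probes and 16.0% of all probes were called with all arrays. Without replicate 2 these shares were 16.9% and 25.2%. Whether the 2 strands of a pair change together was not tested. The opposed pairs, named after their values were seen, were MM9LINCRNAEXON10137 and MM9LINCRNAEXON12104. The plus strand of MM9LINCRNAEXON10137 read 9.23, 9.08 and 9.72 at P7, against 7.69, 8.46 and 7.65 at E12.5, a rise of 1.41 (SE 0.34, adjusted p = 0.00730, limma). Its minus strand read 8.36, 8.17 and 8.24 at P7, against 9.58, 11.79 and 9.58 at E12.5, and fell by 2.06 (SE 0.52, adjusted p = 0.0102). E12.5 replicate 2, the highest of these arrays, widens this fall, which was also called without it. In MM9LINCRNAEXON12104 the plus strand fell by 1.08 and the minus strand rose by 1.18 (adjusted p = 0.00509 and 0.0271). Which strand is transcribed was not tested.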

How the data were processed

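Testis RNA was depleted of rRNA, copied by random priming into Cy3 cRNA and hybridised to 1-colour arrays, per the labels' protocols. Per the submitters' processing notes, signals came from Agilent Feature Extraction 11.0.1.1. The authors deposited 1 value per probe and array, taken as log2 signal from its range. For the log base, normalization and probe filter, no statement was found: they are not given in the sources used. The values entered the fit as deposited.

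Stage means of the 18 arrays were estimated in limma 3.58.1 under R 4.3.3 (functions lmFit and eBayes, with 12 residual and 3.20 prior degrees of freedom per probe). A probe was called where its p, adjusted over all probes by Benjamini-Hochberg, was below 0.05 and its change at least 1 (log2). Named probes are the largest changes of each kind that met the call with and without E12.5 replicate 2, did not overlap and, for undone changes, overlapped at E15.5 with neither other stage. The 2 brightest bounded probes and the 2 largest rises and 2 largest falls called only without replicate 2 were added. The comparison, the lists and these rules were chosen with earlier results of these data known. The fit was tested on simulated data. Alternatives comprised the replicate block, fewer arrays, another prior, array weights (gene-by-gene method), rescaling, filters, other thresholds and each array left out. Plots used matplotlib 3.10.9.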

Additional observations from a re-analysis of the deposited data

How the results depend on the processing

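The 8 counts and the changes of 36 named probes were recomputed under the alternatives. Of 608 values of named probes, 0 turned a called change round, 29 crossed into significance (2 for the undone fall ASMM9PARTA028745 and all others for the 4 probes called only without E12.5 replicate 2), and 1 lost it (ASMM9PARTA012443, given above). The probes were chosen for large changes in these data, so their directions could hardly turn. Of 170 recomputed counts, 27 moved by over 1.5 times. With each array left out in turn, probes called between P7 and E12.5 numbered 4227 to 9524, kept changes 1741 to 5855, lincRNA probes called 184 to 418, undone changes 1734 to 2432, exceeded changes 76 to 111 and probes called between E15.5 and E12.5 5068 to 10780. Array weights, which gave E12.5 replicate 2 a weight of 0.0640, yielded 11118 probes called between P7 and E12.5, 12343 between E15.5 and E12.5, 6959 kept changes and 532 lincRNA probes. When the mean of E12.5 replicates 1 and 3 stood for both, kept changes numbered 1744 and lincRNA probes 183. When each comparison was fitted on its own 6 arrays, kept changes numbered 1826. At an adjusted p below 0.01 kept changes numbered 1777, exceeded ones 57 and lincRNA probes 176, and with no minimum change 274 were exceeded. By treat in limma, which tests for more than 2-fold, 1217 probes were called between P7 and E12.5, 1807 between E15.5 and E12.5 and 1148 between P7 and E15.5. Counting a change as undone where 50% or more had returned and P7 was not called, with no test against E15.5, gave 3473, and an interval within 1.5-fold held for 2637 probes. In 2 fits chosen after seeing the data, 9381 probes were called between P7 and E12.5 and 5639 changes kept without E12.5 replicate 2 and E15.5 replicate 2, and 10287, 6370 and 442 lincRNA probes without E12.5 replicate 2 and P21 replicate 1. The cause of these shifts was not tested. With the replicate number as a block 6305 probes were called. Deviations of same-numbered arrays of the 3 stages correlated from -0.31 to 0.50 across probes, and of differently numbered ones from -0.54 to 0.53. At E12.5 replicate 2 stands against replicates 1 and 3, which therefore deviate alike. Whether the numbers pair the samples cannot be told from these values. The median change of all probes was 0.08, and 0.00 after quantile normalization again. With no measure of background, signal near the lower end sets no limit of detection.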
